A study of Saccharomyces cerevisiae with 2 samples.

Results

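The genes described here encode the proteins of the small subunit of the cytosolic ribosome of budding yeast, Saccharomyces cerevisiae. They were taken by name, as every gene on the array whose symbol is RPS followed by a number and, for duplicated genes, the letter A or B. This gave 56 genes of the 5670 nuclear genes on the array, which encode 32 proteins: 24 proteins have an A and a B gene, and 8 have 1 gene. The study measured where histone H3 lies along the genome. Both arrays came from strain MDY510, in which H3 carries a Myc tag, and the cells had been held with alpha factor, the mating pheromone that stops the cycle before DNA synthesis, with no galactose induction. Sheared chromatin was precipitated with a monoclonal antibody to Myc, the DNA was amplified linearly, and the product was labelled with Cy5 and hybridised against sheared input chromatin (whole-cell extract, WCE) of the same strain labelled with Cy3. There was 1 group of 2 arrays, both of the same dye orientation and on 1 slide, and no untagged control and no other condition was analysed here.

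Ribosomal protein genes are among the most strongly transcribed genes of growing yeast, and their products are made in matched amounts. Their promoters are known for binding sites of Rap1 and for the cofactors Fhl1, Ifh1 and Hmo1, and the region upstream of the start of many of them is known to be poor in nucleosomes. Most of the duplicated genes arose from a whole-genome duplication, and the members of a pair encode near-identical proteins from separate promoters.

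Values below are log2 ratios of Cy5, labelled IP, over Cy3, labelled WCE, with each array centred on the median of its kept probes, so that 0 is the median probe. They were averaged over the probes of a coding region or a promoter and are given as mean ± SD over the 2 arrays. Across nuclear probes the arrays correlated at r = 0.988 (Spearman's rho 0.978, 40660 probes, a description across probes). The channel labels did not pass a check with mitochondrial DNA, which carries no histones: 230 mitochondrial probes lay 4.84 ± 0.10 (SD, n = 2) above the nuclear probes, a 28.7-fold higher ratio in the channel labelled IP. The channels are therefore called by their labels throughout, and if they had been exchanged every sign given here would turn. No value below is read as more or less H3 for that reason.

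The test of a call matters for reading the counts. limma was used to test each gene against 0, and with 2 arrays a gene has 1 residual degree of freedom. For coding regions and for promoters limma's estimate of the prior degrees of freedom was infinite, so every gene was tested against 1 pooled spread (0.03 and 0.05 on the log2 scale) and not against its own. A call therefore says that a gene lay away from the array median by more than the usual gap between these arrays, and its p-value does not measure the gene's own reproducibility, so p-values of called coding regions and promoters are not printed. When each gene was tested on its own spread alone, an alternative added after the data were seen, 0 of 4996 coding regions and 0 of 5175 promoters passed in limma's linear fit without moderation. At an unadjusted p under 0.05, that alternative gave 17 RPS coding regions higher and 0 lower, and 42 RPS promoters higher and 0 lower. Over all genes it gave 14.4% of coding regions higher and 25.1% lower, and 43.2% of promoters higher and 7.61% lower. An exact permutation test on 2 arrays cannot go below p = 0.5. Nothing in the labels says that separate cultures were used, so the spread between arrays may be technical. The ratios also depend on the scanner software's processed signals: with normexp background correction of the unprocessed signals, 0 RPS coding regions and 0 RPS promoters passed in limma, and at an unadjusted p under 0.05, 8 coding regions and 32 promoters were higher and 0 lower. This setting, called normexp below, also left out the software's dye normalisation. Its array medians before centring were 0.02 and -2.92, so changes under it cannot be assigned to background correction alone. Over all genes the same threshold with normexp gave 4.14% of coding regions higher and 10.4% lower, and 13.6% of promoters higher and 0.599% lower. With normexp the RPS means lay above 0 in 34 of 39 coding regions and 56 of 56 promoters.

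In coding regions, RPS genes had higher ratios than most genes. Of the 39 with at least 2 kept coding probes, 35 were called higher in the channel labelled IP, 2 lower and 2 were not called (limma, adjusted p under 0.05), where 34.9% of all 4996 coding regions were called higher and 49.1% lower, 83.9% in all. Of the 122 kept coding probes of 51 RPS genes, 86 were called higher and 14 lower. Over all probes of every class, 39.4% were called higher and 39.4% lower, 78.8% in all. The median of the 39 coding regions was 0.28 (0.24 on replicate 1 and 0.31 on replicate 2), against -0.04 for all genes. The large-subunit genes, named RPL or RPP, had a like profile, with 57 of 63 called higher, 3 lower and a median of 0.32.

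RPS4A, which encodes a protein of the subunit's body, had the highest coding ratio of the RPS genes, 0.88 and 0.91 on the 2 arrays (0.89 ± 0.02), rank 32 of 4996. RPS22A, also a body protein gene, followed with 0.71 and 0.77 (0.74 ± 0.05). RPS1A read 0.54 and 0.59, and RPS9A 0.53 and 0.59. RPS3, whose product lines the channel by which mRNA enters, read 0.50 and 0.55, and RPS20, a head protein gene, 0.48 and 0.52. In each of these 6 genes both arrays lay far above the median gene, and the arrays differed by less than 0.1.

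The lowest was RPS22B, the second gene of the RPS22 pair, with -0.70 and -0.58 (-0.64 ± 0.09), rank 4993 of 4996. It was 1 of the 2 genes called lower, and with normexp its sign turned, to 0.29. RPS10B (-0.05 and -0.01) and RPS10A (-0.01 and 0.02) were not called, with limma adjusted p of 0.215 and 0.717. RPS18A (0.09 and 0.11) and RPS0B (0.11 and 0.10) were the lowest that were called higher. Centring each array on its mode ended both calls (limma adjusted p = 0.246 and 0.19) and left 29 of 39 RPS coding regions called higher, beside 1039 of all 4996. Members of one pair thus stood at opposite ends of the list for RPS22, and side by side near 0 for RPS10.

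Of the genes with no paralogue, RPS2 read 0.24 and 0.27, RPS12 0.32 on both arrays and RPS13 0.09 and 0.16. RPS15 and RPS31, the latter made as a fusion to ubiquitin, had only 1 kept coding probe and so were not in the fit, at 0.76 and 0.70. They belong to 12 RPS genes with 1 coding probe, whose values ran from 0.21 to 0.76 with a median of 0.53, against 0.22 for all 469 genes with 1 such probe. RPS26A, RPS28A, RPS28B, RPS29A and RPS29B had no kept coding probe.

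Genes with fewer coding probes had higher coding ratios across the array, so RPS genes were set beside genes with as many probes. With 2 coding probes the median was 0.31 in 14 RPS genes and 0.12 in all genes. With 3 probes it was 0.25 in 19 RPS genes against 0.06, and with 4 probes 0.23 in 5 RPS genes against 0.02. In these classes 12 of 14, 16 of 19 and 5 of 5 RPS genes lay above the all-gene median of their class. Genes of the head and of the body of the subunit had close coding medians, 0.28 in head genes and 0.25 in body genes.

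**Figure D1:**
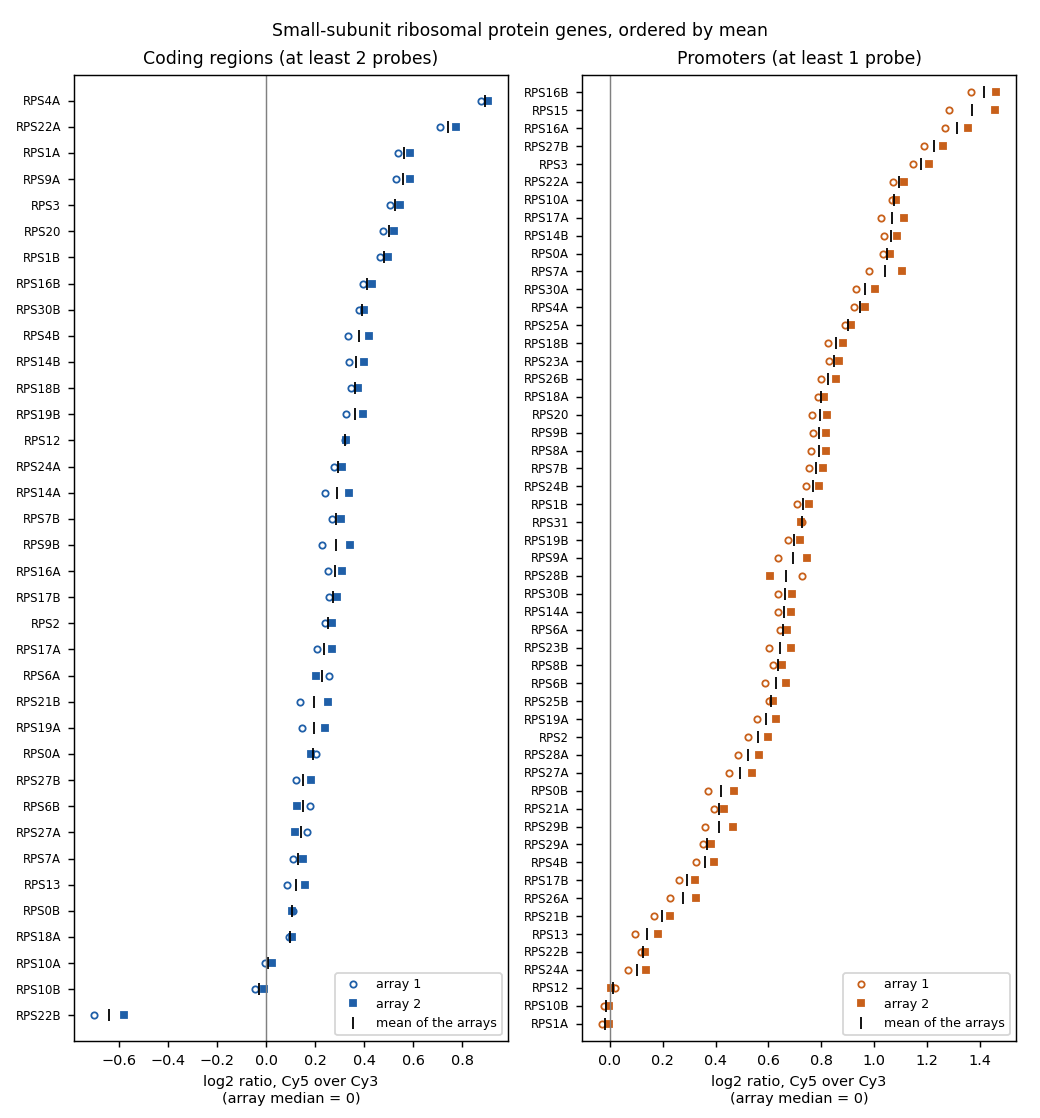
Coding and promoter log2 ratios (labelled IP over labelled WCE, 0 is the array median) of the RPS genes reported by name, with open circles for array 1, squares for array 2 and a tick for their mean. RPS4A lies highest among coding regions and RPS22B lowest at -0.64, and most promoter points lie to the right of 0.

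The promoters of RPS genes were higher than their coding regions and higher than most promoters. Of 56 promoters, 53 were called higher, 0 lower and 3 were not called (limma, adjusted p under 0.05), but 70.8% of all 5175 promoters were called higher and 16.3% lower, 87% in all. The size differed more than the count: the RPS median was 0.69 (0.69 and 0.72 on the 2 arrays), against 0.23 for all promoters. Large-subunit genes had 74 of 81 called higher, 1 lower and a median of 0.74.

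RPS16B and RPS16A, which encode the same head protein, were both among the highest, at 1.36 and 1.46 for RPS16B (1.41) and 1.27 and 1.35 for RPS16A (1.31). RPS15, a head protein gene, read 1.28 and 1.46 (1.37). RPS27B read 1.19 and 1.26, and RPS3 1.15 and 1.21. RPS16A, RPS16B and RPS15 each share a divergent promoter with a large-subunit gene (RPL13B, RPL13A and RPP2A), so the same probes count for both genes. RPS20 (0.76 and 0.82), RPS31 (0.73 and 0.72) and RPS2 (0.52 and 0.60) were also called higher.

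At the other end, RPS1A (-0.03 and -0.00), RPS10B (-0.02 and -0.00) and RPS12 (0.02 and 0.00) stood at the array median and were not called, with limma adjusted p of 0.637, 0.712 and 0.712. RPS24A (0.07 and 0.14), RPS22B (0.12 and 0.13) and RPS13 (0.10 and 0.18) were called at low values, and none of these was called with the arrays centred on their modes (limma adjusted p = 0.272, 0.138 and 0.0917). The mean of RPS1A hides 2 probes that differ, 0.53 near the gene and -0.57 farther out.

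RPS promoters had high values in both classes of promoter. The 23 RPS genes with a tandem promoter had a median of 0.66, with 21 called higher, where all tandem promoters had 0.17 and 63.9% called higher. The 33 with a divergent promoter had 0.73, with 32 called higher, where all divergent promoters had 0.29 and 77.1%.

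**Figure D2:**
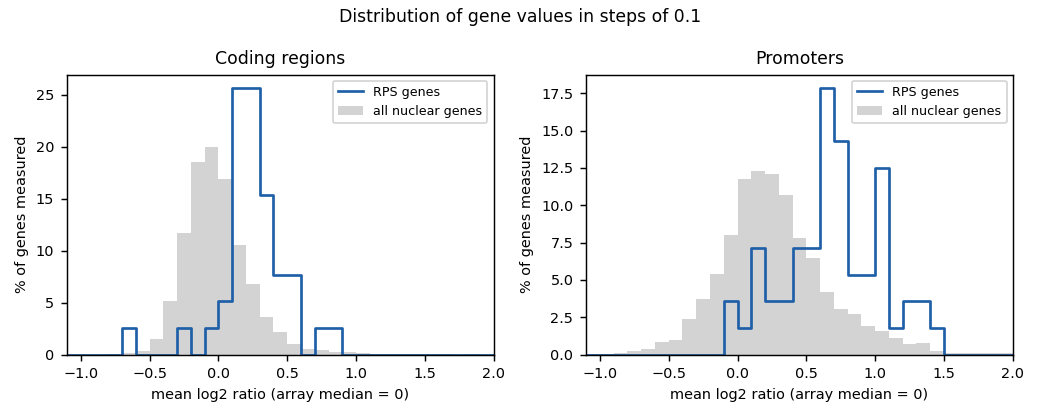
Share of genes (percent) in bins of 0.1 of the log2 ratio, for coding regions and promoters, RPS genes beside all genes. The RPS medians, 0.28 and 0.69, lie to the right of the all-gene medians, -0.04 and 0.23.

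Within genes, the promoter was above the coding region in 35 of 39 RPS genes (89.7%) and in 3537 of 4576 genes (77.3%). The difference was called positive in 30 RPS genes, negative in 3 and was not called in 6, where 71.9% of all genes were called positive and 17.9% negative, 89.8% in all (limma, adjusted p under 0.05). The median difference was 0.40 against 0.25. RPS27B and RPS10A had large differences, both 1.07. RPS1A (-0.58), RPS12 (-0.31) and RPS24A (-0.19) went the other way, each with a low promoter. These rest on few probes: RPS12 and RPS24A had 1 promoter probe each, and the 2 of RPS1A read 0.53 and -0.57. The coding probes of RPS12 read 0.76 and -0.11, and those of RPS24A 0.77 and -0.18. Across the 39 genes the promoter and coding values correlated weakly (r = 0.26, rho 0.18, a description across genes that share both arrays), close to 0.27 and 0.21 over all genes.

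Probe positions were counted only in genes with at least 2 kept coding probes. By position, the RPS mean was 0.72 at the first probe upstream of the gene and 0.80 at the second. It was 0.39 at the first coding probe, 0.14 at the second and, in 25 genes, 0.26 at the third. All genes with 2 to 5 coding probes read 0.25, 0.38, 0.12, 0.04 and 0.00 at these positions. In the 19 RPS genes with at least 2 coding and 3 upstream probes, the same genes at each position, the mean was 0.67 at the first, 1.03 at the second and 0.70 at the third. The same positions read 0.32, 0.50 and 0.47 in 840 genes. Among RPS genes with at least 2 coding probes, 33 had several upstream probes. The highest upstream probe was the first in 14 of these 33, the second in 15, and farther out in 4. No share over all genes is given for this. RPS3 had the highest single one, 2.36, the fifth probe out in the promoter it shares with RHO5, and RPS7A (2.22) and RPS22A (2.01) were also high.

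**Figure D3:**
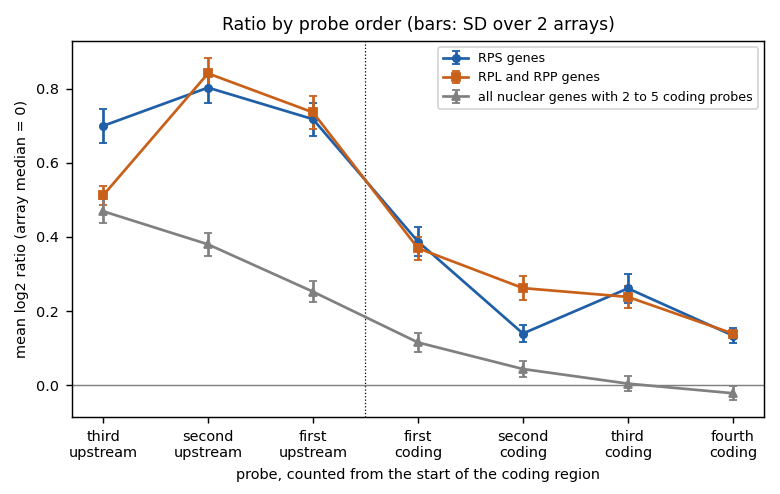
Mean log2 ratio by probe position, counted upstream and into the coding region from the gene's start, with bars for the SD over 2 arrays. Shown are RPS genes and large-subunit genes with at least 2 coding probes, and all nuclear genes with 2 to 5. RPS means reach 0.80 at the second upstream probe and read 0.14 at the second and 0.26 at the third coding probe.

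The A and B genes of a pair were compared within each array. In coding regions, 15 pairs had values for both genes: A was called higher in 6, B in 6, and 3 were not called (limma over all 39 pairs fitted, of which 51.3% were called with A higher and 35.9% with B higher, 87.2% in all). All 39 have names that begin with RP, the RPS pairs among them, so their share is not one of unrelated paralogues. Among RPS pairs the sizes were mostly small, with a median absolute difference of 0.13, against 0.17 over all 39 pairs. In 3 called RPS pairs the difference reached 0.3, and 11 of all 39 pairs reached it, called or not. RPS22A exceeded RPS22B by 1.41 and 1.35 (1.38 ± 0.04, 2.61-fold, limma adjusted p = 6.4e-05). RPS4A exceeded RPS4B by 0.51 ± 0.04 (limma adjusted p = 0.00034). With normexp these coding differences fell to 0.05 for RPS22 and 0.09 for RPS4, and neither passed (limma adjusted p = 0.954 for each). Of the 3 called RPS pairs that reached 0.3, 2 kept their sign with normexp. The probes of RPS22A and RPS22B did not overlap in value. In RPS4B they were spread, 0.02 and 0.73, against 1.07, 0.92 and 0.69 in RPS4A. Fragments of near-identical paralogues can bind each other's coding probes, and the part of this in small differences was not tested.

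In promoters the differences between paralogues were larger. Of 24 pairs A was called higher in 11, B in 9 and 4 were not called (RPS6, RPS18, RPS28 and RPS29, in limma over all 60 pairs, of which 45% were called with A higher and 46.7% with B higher, 91.7% in all). Among these 60, 58 have names that begin with RP, the RPS pairs included. The median absolute difference of RPS pairs was 0.30, against 0.40 over all 60 pairs. In 12 called RPS pairs the difference reached 0.3, A being higher in 6 and B in 6. It was reached in 37 of all 60 pairs, called or not. RPS10A exceeded RPS10B by 1.09 (2.12-fold): its 3 promoter probes read 0.82, 1.44 and 0.96, and those of RPS10B lay between -0.40 and 0.52. The 1.44 probe was saturated, and without saturated probes the RPS10 difference was 0.91. With normexp the RPS10 difference was 0.38 and did not pass (limma adjusted p = 0.925), and each of the 12 pairs that reached 0.3 kept its sign without passing. With loess normalisation added to normexp, 10 of these 12 pairs kept their sign. RPS22A exceeded RPS22B by 0.96, RPS17A exceeded RPS17B by 0.78, RPS0A exceeded RPS0B by 0.63, RPS4A exceeded RPS4B by 0.58 and RPS30A exceeded RPS30B by 0.30. The pairs with B higher included, as A minus B, RPS1 (-0.75), RPS27 (-0.73), RPS24 (-0.66), RPS26 (-0.55) and RPS14 (-0.40). On each pair's own spread between the arrays, 6 pairs passed with A higher and 6 with B higher in promoters, and 1 and 1 in coding regions. Those coding pairs were RPS6 (A minus B 0.08) and RPS7 (-0.16), whose arrays lay close together, and not RPS22 or RPS4. No share over all pairs is given for this. In promoters, probes of the 2 genes did not overlap in value in 9 pairs, and in 8 pairs at least 1 of the genes had a single promoter probe, both of them in RPS30. Of 15 pairs with both regions measured, 11 had the same sign in promoter and coding region and 4 the opposite.

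**Figure D4:**
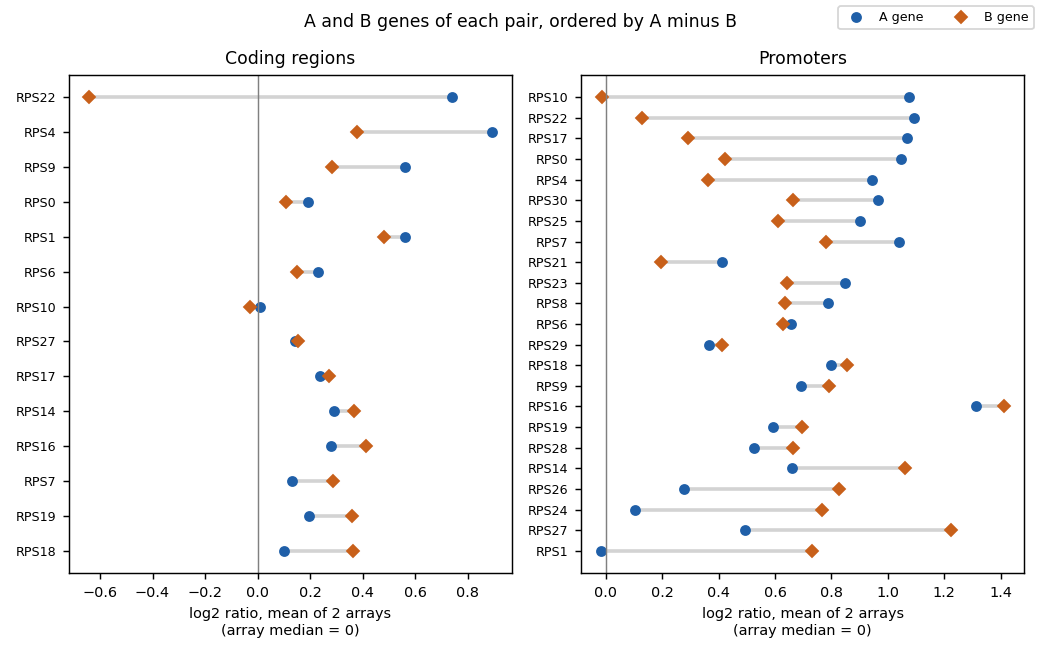
Log2 ratio (mean of 2 arrays) of the A gene (circle) and the B gene (diamond) of the RPS pairs reported by name, in coding regions and promoters, ordered by A minus B, with a grey line joining the pair. The genes of RPS22 are farthest apart in coding regions, by 1.38, and promoter differences run from -0.75 for RPS1 to 1.09 for RPS10.

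The probes of RPS22B differed among themselves. Its coding probes, on chromosome 12 between 856763 and 857070 in the array's coordinates (their genome build was not stated in the labels or headers), read -0.13 and -1.15, so that a single probe held most of the low value. Its 7 promoter probes read, from the gene outward, -0.62, -0.27, 0.49, 0.57, 0.53, -0.03 and 0.22. In RPS27B the coding probes ran from 0.88 to -0.52, and in RPS24A they read 0.77 and -0.18. The median SD between the coding probes of a gene was 0.25 in RPS genes and 0.24 over all genes.

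**Figure D5:**
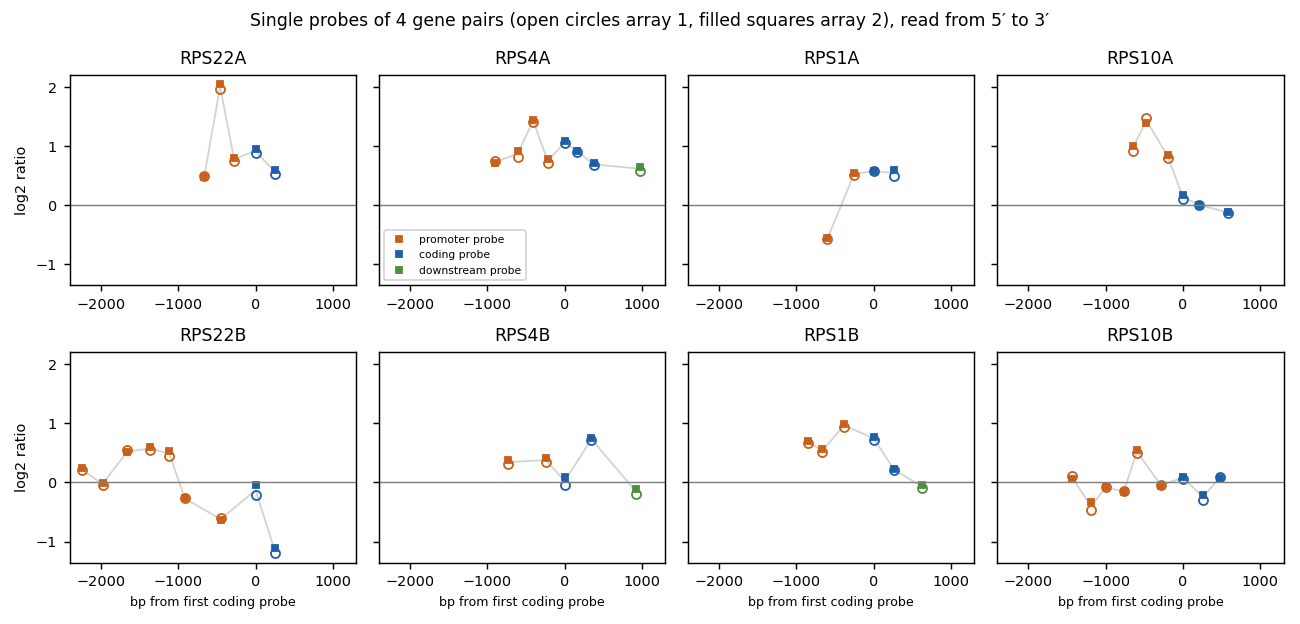
Log2 ratio of single probes against distance from the first coding probe (bp), for the A and B genes of RPS22, RPS4, RPS1 and RPS10, with open circles for array 1 and filled squares for array 2. The coding probes of RPS4A lie between 0.69 and 1.07, and those of RPS22B at -0.13 and -1.15.

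RPS coding regions lay above those of both neighbours in 27 of 39 genes (69.2%), where 31.8% of all genes did, and the median of the neighbours was 0.01. Among 22 RPS genes that share a divergent promoter and have a coding value for both partners, the RPS gene was higher in 20, with medians of 0.28 and 0.00. RPS7A, beside RKI1, and RPS14B, beside SOP4 at 1.01, were the exceptions. Neighbours and partners were not matched to the RPS genes by number of coding probes, with which coding ratios varied across the array. Downstream of the genes the RPS values were near those of the genome: of 23 genes 9 were called higher, 7 lower and 7 were not called, where 34.1% of 1260 genes were called higher and 45.2% lower, 79.4% in all. The highest there were RPS26B (0.80), RPS29A and RPS4A (both 0.62), and the lowest RPS17B (-0.70).

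Genes for regulators of ribosomal protein transcription were listed beside the RPS genes. Of 10 listed, 9 were measured, with 2 to 27 coding probes each, and they were not matched to other genes by probe number. In coding regions 1 was called higher (HMO1, an architectural protein of these promoters, 0.46) and 8 lower, SFP1, an activator of ribosomal protein genes, being the lowest at -0.44, beside 34.9% higher and 49.1% lower over all coding regions. Their promoters were called higher in 6, HMO1 (0.94) and SFP1 (0.71) the highest, and lower in 2, TOR2 (-0.17) and RAP1 (-0.08), beside 70.8% higher and 16.3% lower over all promoters.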

How the data were processed

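Each array was deposited as the scanner's output, with spot intensity in both channels; per the file headers, Agilent Feature Extraction 9.1.3.1 subtracted background and normalised the dyes, which gave the processed intensity used here. A table of log2 ratios that the authors deposited served as an alternative. Control spots, outlier-flagged spots and probes not well above background in Cy3 were left out, which kept 40890 of 41775 probes. Gene values needed 2 coding probes or 1 promoter probe, and probes of a divergent promoter entered the mean of each of its genes. limma 3.58.1 in R 4.3.3 (lmFit and eBayes) tested values against 0 with Benjamini-Hochberg adjustment over all features. The prior degrees of freedom were infinite for coding regions and promoters and finite for promoter minus coding and the pairs. The test on simulated data drew equal spreads and so does not bear on this. Named genes were the 6 at each end, single-copy genes and pairs called and differing by 0.3 or more. Some members are counted but not reported by name or plotted singly here. The members, lists and tests were chosen with earlier results of these data known. Median signals were 34318 and 36699 in Cy5 and 36103 and 34487 in Cy3, and 11.5% of kept probes were saturated in a channel. The number of arrays limits the precision. Alternatives changed the background correction, dye normalisation, centring, probe filters, probe minimum, promoter class and the prior of the spread.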

Additional observations from a re-analysis of the deposited data

How the results depend on the processing

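The calls rest on the pooled spread and on the scanner's processed signals. On each gene's own spread alone (added after the data were seen), RPS coding regions gave 0 higher and 0 lower, promoters 0 higher, and promoter minus coding 5 higher and 0 lower. Coding pairs gave 1 with A and 1 with B higher, and promoter pairs 6 with A and 6 with B higher. Over all genes, promoter minus coding then gave 402 higher and 52 lower of 4576. For pair counts under the alternatives no share over all pairs is given. A robust prior, added likewise, moved none of the main RPS counts. With normexp, coding regions gave 0 and 0, promoters 0, the difference 1 higher and 0 lower and pairs 0 (limma; unadjusted p under 0.05, 8 RPS coding regions and 32 promoters higher, 0 lower), with medians of 0.15 and 0.35. With loess added all these counts were 0 (unadjusted, 14 and 2), with medians of 0.10 and 0.22. Over all genes the unadjusted threshold then gave 8.63% of coding regions higher and 3.08% lower, and 1.66% of promoters higher and 0 lower. The RPS medians with loess differed between the arrays. They were 0.17 on array 1 and 0.03 on array 2 in coding regions, and 0.36 and 0.07 in promoters. The all-gene medians with loess were -0.01 and 0.09. RPS means stayed above 0 in 34 of 39 coding regions and 56 of 56 promoters with normexp, and in 37 and 56 with loess. With 60-nt probes coding regions gave 23 higher and 1 lower of 29, the difference 5 lower of 29, coding pairs 0 with A and 6 with B higher of 8, the promoter median 0.66 and promoter above coding 23 of 29. All genes with these probes gave 1268 coding regions higher and 2260 lower of 4023, and 554 differences lower of 3335. A higher probe minimum gave 22 and 1 of 25 and the difference 0 lower of 24. Coding pairs then gave 1 with A and 5 with B higher of 7, and promoter pairs 8 with A and 5 with B higher of 16. All genes at that minimum gave 1320 coding regions higher and 2277 lower of 4282, and 317 differences lower of 2443. Tandem promoters alone gave 21 of 23 promoters and 12 of 16 differences higher, pairs 0 with A and 3 with B higher of 4, a median of 0.66 and promoter above coding in 13 of 16. For all genes they gave 1635 of 2566 promoters and 1504 of 2267 differences higher. The median of probes gave 5 differences lower, and centring on the mode 29 of 39 coding regions and 50 of 56 promoters higher and a promoter median of 0.66. For all genes, the median of probes gave 817 of 4576 differences lower. Centring on the mode gave 1039 of 4996 coding regions and 3064 of 5175 promoters higher. Leaving out 1 array in the main setting gave medians of 0.24 to 0.31 in coding regions and 0.69 to 0.72 in promoters. Of 73 gene and pair values followed singly, 6 turned in sign where either setting gave a call. They were, with normexp, the coding values of RPS0A (-0.0225), RPS0B (-0.0415) and RPS22B (0.29), with loess the promoter pairs RPS14 (0.0373) and RPS30 (-0.0168), and with the median of probes RPS10B (0.0709). Of all RPS pairs, called or not, 12 of 15 coding and 22 of 24 promoter pairs kept their sign with normexp. With loess 14 of 15 and 18 of 24 did. With the median of probes 11 of 15 and 21 of 24 did, and with 60-nt probes 7 of 8 and 19 of 23. The causes were not tested. No paired analysis was possible because there is 1 group.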
